A study of Mus musculus with 6 samples.

Results

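Enteroendocrine cells are scattered hormone-producing cells of the gut epithelium. They arise from the same crypt progenitors as goblet cells under the control of basic helix-loop-helix transcription factors, sense nutrients and microbial products at the lumen, and release peptides and serotonin from dense-core granules at their base. In the mouse colon, L cells make peptide YY, proglucagon peptides and insulin-like 5, and enterochromaffin cells make serotonin. A total of 10 genes that mark these cells (Chga, Chgb, Pyy, Gcg, Cck, Insl5, Sst, Tph1, Neurod1 and Sct) were chosen by name from the 54532 genes of the deposited table, and all 10 were found. They were examined in 3 tumors of Tmem173fl/fl mice, which carry loxP sites around Tmem173 (the gene encoding STING, an adaptor of cytosolic DNA sensing), and 3 of Tmem173fl/flLzym-Creert2 mice, called Tmem173iΔmye here and labelled CRE at deposit. Every animal, controls included, received azoxymethane (AOM), a colon carcinogen, and 3 cycles of dextran sulfate sodium (DSS), which injures the colon epithelium, and then tamoxifen, which activates the Cre. The Cre is driven by the Lyz2 promoter, which is active in myeloid cells. The ages of these animals are not given in the labels.

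RNA of whole tumor pieces was sequenced, with 15329810 to 16533732 counts per tumor. In such RNA, fewer enteroendocrine cells and less RNA per cell cannot be told apart. The labels do not say which tumors came from separate mice or litters, so the p-values measure the spread between these tumors. Tmem173 itself ranged from 1705 to 2911 counts in Tmem173fl/fl and from 1953 to 2291 in Tmem173iΔmye tumors, and whole-tumor RNA thus does not tell the genotypes apart. The tissue label was borne out by 10 of 10 epithelial markers, whose summed FPKM (counts scaled by gene length and library size) was 5961 to 6532 and 6300 to 7314 in the 2 groups. Y-linked genes had 2655 to 3547 counts in 1 of 3 Tmem173fl/fl tumors (replicate 1) and 2 of 3 Tmem173iΔmye tumors (replicates 1 and 2), and at most 2 in the others, so the sexes were not balanced.

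Between genes, levels were compared per length as FPKM, over all 6 tumors. Pyy, which encodes the satiety and anti-secretory hormone peptide YY, was the most abundant, at 41.8 ± 36.9 FPKM (SD, n = 6), and lay above every other gene of the group in all 6 tumors. Chgb and Chga, which encode the granule proteins chromogranin B and A, followed at 5.55 ± 2.88 and 4.28 ± 2.13 (SD, n = 6), with Insl5 between them at 4.95 ± 1.69 (SD, n = 6). These 3 were not separated, since Chgb exceeded Insl5 in 4 of 6 tumors and Insl5 exceeded Chga in 3 of 6. Sct, encoding secretin, had 2.12 ± 1.46, and Gcg, encoding proglucagon, had 1.75 ± 0.60 (SD, n = 6), again without order between them. Tph1, encoding the enzyme that commits tryptophan to serotonin outside the brain, had 1.07 ± 0.94, and Sst, encoding somatostatin, 0.909 ± 0.615 (SD, n = 6). Tph1 was above Sst in 3 of 6 tumors. Neurod1, a transcription factor of differentiating enteroendocrine cells, and Cck, encoding cholecystokinin, stood last at 0.218 ± 0.165 and 0.216 ± 0.158 (SD, n = 6). The summed FPKM of the 10 genes was 56.0, 40.9 and 149 in Tmem173fl/fl replicates 1, 2 and 3 and 38.3, 31.1 and 62.0 in Tmem173iΔmye replicates 1, 2 and 3. Pyy made up 51.3% to 77.4% of this sum in single tumors. Without Pyy, the sums were 27.3, 12.1 and 33.7 in the Tmem173fl/fl and 18.0, 13.3 and 22.0 in the Tmem173iΔmye tumors, and the groups overlapped with and without it.

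**Figure D1:**
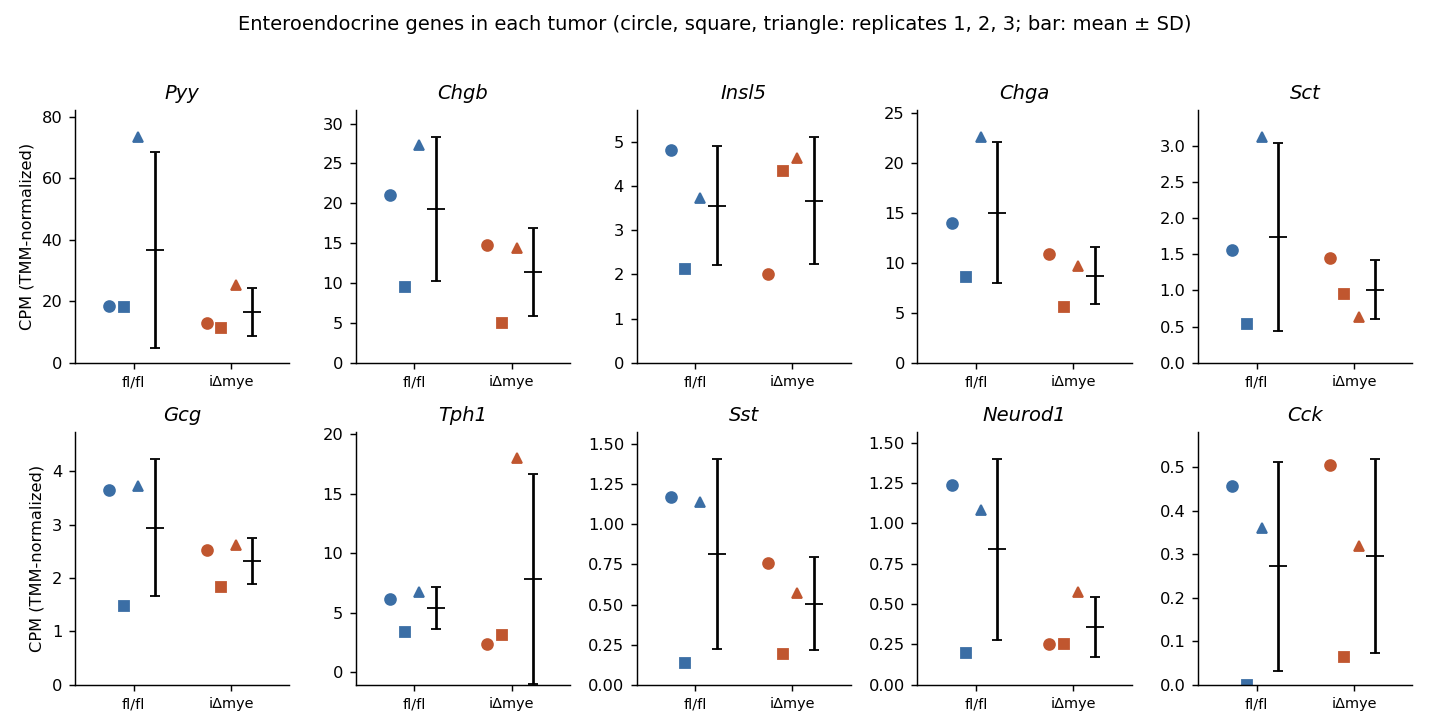
TMM-normalized CPM (y axis, a separate linear scale for each gene) of the 10 enteroendocrine genes in Tmem173fl/fl (fl/fl, blue) and Tmem173iΔmye (orange) tumors, with the mean and SD of each group beside the points. In each panel the groups overlap, Tmem173fl/fl replicate 3 (blue triangle) stands apart for Pyy at 73.3 CPM, and Tmem173iΔmye replicate 3 (orange triangle) for Tph1 at 18.0 CPM.

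Promoter sequences are shown for 4 genes that differ in which regulatory letters they hold: Pyy as the most abundant gene, Chgb and Sst as granule protein and hormone that share a motif, and Gcg as the proglucagon gene. They are RefSeq sequences of GRCm38.p6 from 250 bases before to 50 bases after an annotated start, on the coding strand: Pyy at chr11:102107783-102108082 (minus strand), Chgb at chr2:132781392-132781691 (plus strand), Gcg at chr2:62483604-62483903 (minus strand) and Sst at chr16:23890795-23891094 (minus strand). Capitals mark CAGATG, an E-box of the kind Neurod1 binds, TGACGTCA, the palindromic cAMP response element, and TATAAA, the TATA box, all searched on both strands.
Pyy: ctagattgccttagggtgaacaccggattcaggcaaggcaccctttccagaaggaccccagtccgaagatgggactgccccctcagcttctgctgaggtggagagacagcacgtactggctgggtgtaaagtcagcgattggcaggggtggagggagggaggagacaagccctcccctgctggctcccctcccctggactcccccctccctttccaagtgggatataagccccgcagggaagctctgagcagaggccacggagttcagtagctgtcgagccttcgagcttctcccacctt
Chgb: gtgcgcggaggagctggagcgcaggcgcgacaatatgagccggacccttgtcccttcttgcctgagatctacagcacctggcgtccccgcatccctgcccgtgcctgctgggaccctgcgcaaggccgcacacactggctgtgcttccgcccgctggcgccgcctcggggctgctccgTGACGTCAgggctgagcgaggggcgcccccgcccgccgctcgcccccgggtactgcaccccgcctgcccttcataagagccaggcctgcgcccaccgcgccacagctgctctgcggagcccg
Gcg: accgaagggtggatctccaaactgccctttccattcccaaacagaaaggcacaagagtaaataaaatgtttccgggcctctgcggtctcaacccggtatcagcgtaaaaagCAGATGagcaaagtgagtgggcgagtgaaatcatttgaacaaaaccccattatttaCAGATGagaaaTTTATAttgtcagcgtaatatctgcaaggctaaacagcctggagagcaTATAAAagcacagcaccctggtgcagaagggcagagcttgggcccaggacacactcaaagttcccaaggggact
Sst: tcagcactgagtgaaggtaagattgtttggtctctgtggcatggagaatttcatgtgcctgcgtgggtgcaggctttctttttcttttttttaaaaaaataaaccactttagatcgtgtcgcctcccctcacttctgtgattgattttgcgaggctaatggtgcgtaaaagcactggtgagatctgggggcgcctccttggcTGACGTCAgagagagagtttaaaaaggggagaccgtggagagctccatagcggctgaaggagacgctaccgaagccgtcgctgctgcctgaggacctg
RefSeq lists 13 promoters for the 10 genes. The full cAMP response element is held by 2 of the 10 genes, Chgb and Sst, where it begins at -72 and -48 from the start. It is in 2 of these 13 promoters and in 1.79% of all 32851 promoters. The E-box is held by 4 genes (Cck, Gcg, Insl5 and Sct), in 4 of the 13 promoters, and by 17.2% of all promoters, and Gcg has it at -139 and -83. The TATA box is held by 4 genes (Chga, Gcg, Insl5 and Sct), in 5 of the 13 promoters, and by 13.6% of all promoters. In Chga it begins at +5 from the RefSeq start, which lies 29 bases before the annotated gene. None of the 3 exact strings is in the Pyy window shown or in its other one. Both Pyy windows hold the near match TATAAG, which was not searched for. The RefSeq start used lies 363 bases inside the annotated gene for Chgb and 113 bases inside it for Sst. These matches describe letters and not bound sites.

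The comparison asked whether enteroendocrine genes differed between tumors with and without induced Cre. In Tmem173iΔmye tumors, 7 of the 10 genes had a fitted log2 fold change below 0 relative to Tmem173fl/fl (Pyy, Neurod1, Chga, Sct, Chgb, Sst and Gcg) and 3 had one above 0 (Tph1, Cck and Insl5), with a median of -0.72. Over the 16426 genes tested, 50.6% were below 0, and the median was -0.0042. By edgeR's quasi-likelihood test, adjusted after Benjamini and Hochberg, 0 of the 10 had an adjusted p under 0.05, as did 0% of all genes, and none had an unadjusted p of at most 0.05, against 6.14% of all genes. None passed the study's limits either (a change by 1 or more on the log2 scale at an unadjusted p no greater than 0.05), which 2.12% of all genes tested did, 0.864% lower and 1.26% higher in Tmem173iΔmye. The groups overlapped for all 10 genes, while 12.5% of all genes did not overlap, 6.47% lower and 6.03% higher. With DESeq2, none of the 8 genes that were given an adjusted p (all but Cck and Sst) was under 0.05, and 1, Pyy, had an unadjusted p of at most 0.05.

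All log2 ratios are Tmem173iΔmye over Tmem173fl/fl, and values of single tumors are in the order of replicates 1, 2 and 3, with Tmem173fl/fl first.

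Single tumors decided how many genes passed. Tmem173fl/fl replicate 2 was among the 2 lowest tumors for 8 of the 10 genes and the lowest of all for 5. Without it, 9 of the 10 genes were below 0, 4 passed the study's limits (Chga, Chgb, Pyy and Neurod1, all lower in Tmem173iΔmye), where 1.13% of all genes passed in that direction, and 6 no longer overlapped (Chga, Chgb, Gcg, Sst, Neurod1 and Sct), where 12.9% of all genes were lower without overlap. This tumor was singled out by its low values for these same genes, so leaving it out raises their Tmem173fl/fl means. The shares over all genes are therefore no fair background for these counts. Neurod1 was read from the fit of all genes with any count and is not among the genes behind these shares. Pyy alone passed without Tmem173fl/fl replicate 1 (1.21% of all genes passed in this direction) and also without Tmem173iΔmye replicate 3 (0.877% passed). Without Tmem173iΔmye replicate 3, Pyy and Tph1 did not overlap between the groups, as 11.4% of all genes did not in this direction. Tmem173fl/fl replicates 1 and 3 were each among the 2 highest tumors for 8 of the 10 genes, and Tmem173iΔmye replicate 2 was among the 2 lowest for 8. Without Tmem173fl/fl replicate 3, the median over the 10 genes was -0.14, and without Tmem173fl/fl replicate 2 it was -1.08.

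**Figure D2:**
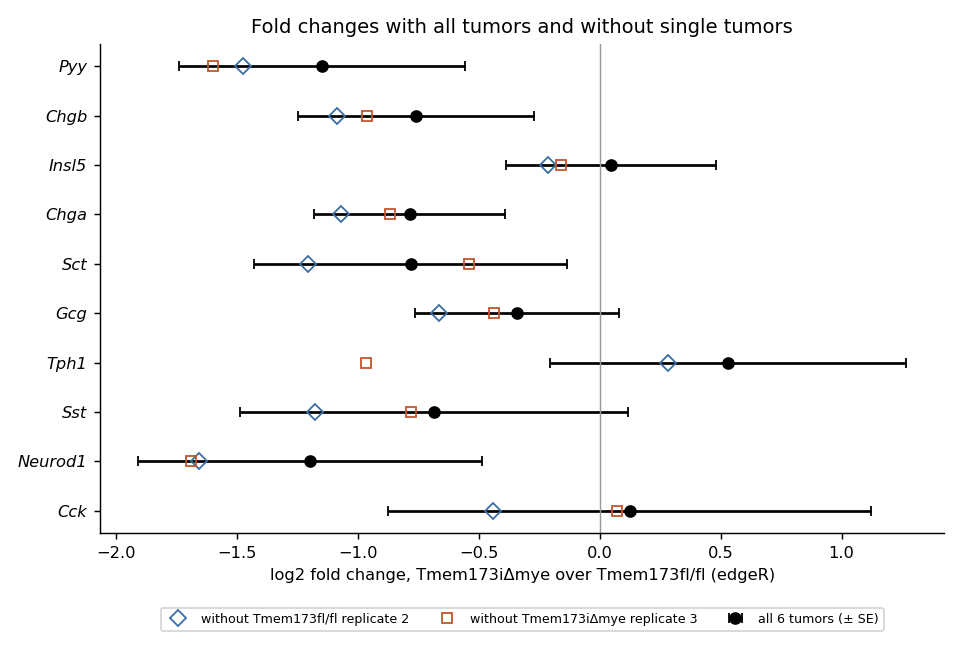
Fitted log2 fold changes (x axis) of the 10 genes (y axis, from the highest to the lowest FPKM) for Tmem173iΔmye over Tmem173fl/fl, with all 6 tumors (black, ± SE), without Tmem173fl/fl replicate 2 (diamonds) and without Tmem173iΔmye replicate 3 (squares). Without Tmem173fl/fl replicate 2, 9 of 10 values lie below 0, and without Tmem173iΔmye replicate 3 the value of Tph1 moves from 0.53 to -0.97.

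The chromogranins, acidic proteins that pack hormones into dense-core granules, are the broadest markers of the group. Chga (chromosome 12, 102554969 to 102565028, GRCm38) was read 215, 128 and 376 times (counts) in replicates 1, 2 and 3 of Tmem173fl/fl, and 173, 88 and 152 times in those of Tmem173iΔmye. In CPM (counts per library of TMM-scaled size), the values were 14.0, 8.53 and 22.6 against 10.9, 5.55 and 9.68. Tmem173fl/fl replicates 1 and 3 were above every Tmem173iΔmye tumor and replicate 2 was not. The group means were 15.0 ± 7.08 and 8.71 ± 2.81 CPM (SD, n = 3), with a fitted log2 ratio of -0.79 ± 0.39 (SE, with an edgeR adjusted p = 0.742). Chgb (chromosome 2, 132781278 to 132795079) had 21.1, 9.47 and 27.3 CPM in the Tmem173fl/fl and 14.8, 4.98 and 14.4 CPM in the Tmem173iΔmye tumors. It placed the same Tmem173fl/fl tumor low, and Tmem173iΔmye replicate 2 lowest. Its fitted log2 ratio was -0.76 ± 0.49 (SE, with an edgeR adjusted p = 0.756). The ratio of Chga to Chgb, both as FPKM, was 0.660 to 0.896 in the Tmem173fl/fl and 0.669 to 1.11 in the Tmem173iΔmye tumors.

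The L cell hormones ranked the tumors differently. Pyy (chromosome 11, 102106676 to 102107832) was read 283, 271 and 1222 times in Tmem173fl/fl and 204, 179 and 399 times in Tmem173iΔmye tumors. As CPM these were 18.4, 18.1 and 73.3 against 12.9, 11.3 and 25.4. Tmem173fl/fl replicate 3 stood far above the other 5 tumors, and the remaining Tmem173fl/fl tumors lay below Tmem173iΔmye replicate 3. The fitted log2 ratio was -1.15 ± 0.59 (SE, with an edgeR adjusted p = 0.742), and without Tmem173fl/fl replicate 3 it was -0.14. With Y-linked reads as a covariate, the Pyy ratio was -0.73. Gcg (chromosome 2, 62474530 to 62483650), the source of glucagon-like peptides, had 56, 22 and 62 counts and 40, 29 and 41 counts, with a fitted log2 ratio of -0.34 ± 0.42 (SE, with an edgeR adjusted p = 0.845). Tmem173fl/fl replicate 2 was the lowest and replicates 1 and 3 the highest. Insl5 (chromosome 4, 103017872 to 103026842), a relaxin family hormone of the distal colon, was read 74, 32 and 62 times in Tmem173fl/fl and 32, 69 and 73 times in Tmem173iΔmye tumors. Each group held low and high tumors, and the log2 fold change was 0.046 ± 0.43 (SE, with an edgeR adjusted p = 0.981). Its sign turned without Tmem173fl/fl replicate 2 (-0.22), Tmem173iΔmye replicate 2 (-0.093) or Tmem173iΔmye replicate 3 (-0.16). The ratio of Pyy to Insl5, both as FPKM, was 4.39, 9.72 and 22.6 in the Tmem173fl/fl and 7.31, 2.98 and 6.27 in the Tmem173iΔmye tumors. Insl5 over Gcg ranged from 2.06 to 3.0 in the Tmem173fl/fl and from 1.65 to 4.91 in the Tmem173iΔmye tumors.

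Of the rarer hormones, Sct (chromosome 7, 141278330 to 141279133) was read 24, 8 and 52 times in Tmem173fl/fl and 23, 15 and 10 times in Tmem173iΔmye tumors, with a fitted log2 ratio of -0.78 ± 0.65 (SE, with an edgeR adjusted p = 0.773). Tmem173fl/fl replicate 2 held the lowest value and replicate 3 the highest, so that this group spanned the other. Sst (chromosome 16, 23889573 to 23890958), whose peptide inhibits the release of other gut hormones, had 18, 2 and 19 counts and 12, 3 and 9 counts, with a fitted log2 ratio of -0.68 ± 0.80 (SE, with an edgeR adjusted p = 0.837). Cck (chromosome 9, 121489824 to 121495694) had 7, 0 and 6 counts and 8, 1 and 5 counts, where a count of 0 allows up to 3. Its fitted log2 ratio was 0.12 ± 0.998 (SE, with an edgeR adjusted p = 0.990), and no difference was detectable at this depth. The sign of Cck turned without Tmem173fl/fl replicate 2 (-0.44) or Tmem173iΔmye replicate 1 (-0.49). For Sst and Cck, Tmem173fl/fl replicate 2 and Tmem173iΔmye replicate 2 were the 2 lowest tumors, each from a different group. Neurod1 (chromosome 2, 79452521 to 79456751) was read 19, 3 and 18 times in Tmem173fl/fl and 4, 4 and 9 times in Tmem173iΔmye tumors. Replicates 1 and 3 of Tmem173fl/fl were above all Tmem173iΔmye tumors, and replicate 2 was below them. Its fitted change on the log2 scale, -1.20 ± 0.71 (SE, with an edgeR adjusted p = 0.767), was the lowest of the 10. Neurod1 and Cck did not reach the mean FPKM of 0.5 required for testing and were read from a fit of all 30939 genes with any count. The other 8 genes passed this limit.

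**Figure D3:**
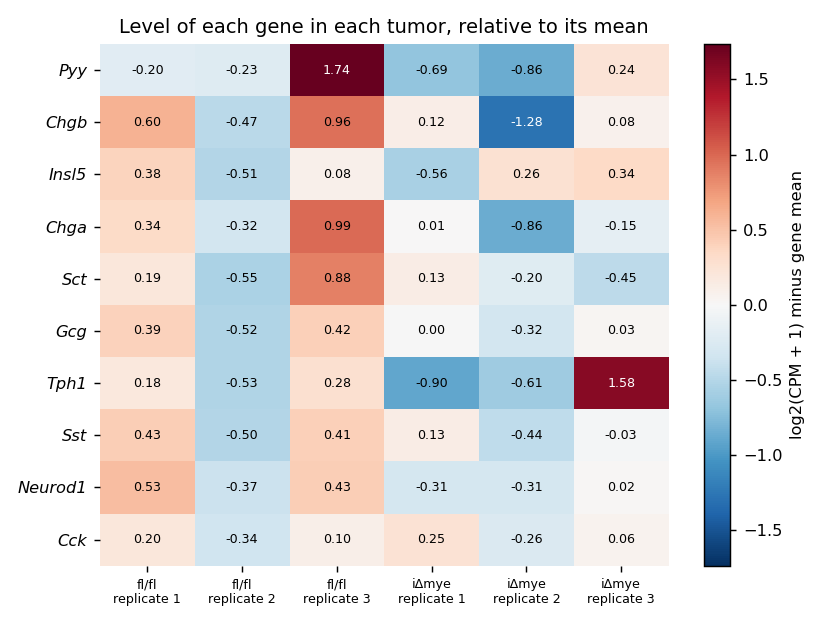
log2(CPM + 1) of each gene (rows) in each tumor (columns; fl/fl is Tmem173fl/fl and iΔmye is Tmem173iΔmye), minus the mean of the gene over the 6 tumors. All 10 values are below 0 in Tmem173fl/fl replicate 2, 10 of 10 are above 0 in replicate 3 of this group, and the single highest values are those of Pyy (1.74) and Tph1 (1.58).

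Tph1 (chromosome 7, 46644641 to 46672537) followed another order. It had 95, 51 and 112 counts in the Tmem173fl/fl tumors and 38, 50 and 283 in the Tmem173iΔmye tumors, or 6.18, 3.40 and 6.72 against 2.40, 3.15 and 18.0 CPM. Tmem173iΔmye replicate 3 was the highest of the 6 tumors, and the other 2 tumors of this group were the lowest. The fitted log2 ratio was 0.53 ± 0.74 (SE, with an edgeR adjusted p = 0.865), and without Tmem173iΔmye replicate 3 it was -0.97 (adjusted p = 0.766 from edgeR). The ratio of Tph1 to Chga, both as FPKM, was 0.197, 0.178 and 0.133 in the Tmem173fl/fl and 0.0981, 0.254 and 0.831 in the Tmem173iΔmye tumors. Mouse mast cells also express Tph1 and make serotonin. The summed FPKM of 12 mast cell markers was 249.9, 107 and 50.1 in the Tmem173fl/fl and 147, 69.1 and 943 in the Tmem173iΔmye tumors, and 11 of the 12 were highest in Tmem173iΔmye replicate 3. Mcpt1, a protease of mucosal mast cells, had 1957, 535 and 155 counts and 905, 387 and 7517 counts in the same order, and Cpa3, mast cell carboxypeptidase, had 102, 100 and 67 and 118, 61 and 665. All 12 markers had counts in every tumor and a log2 ratio above 0, with a median of 1.43, and none passed the limits. The part of mast cells in the level of Tph1 was not tested.

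**Figure D4:**
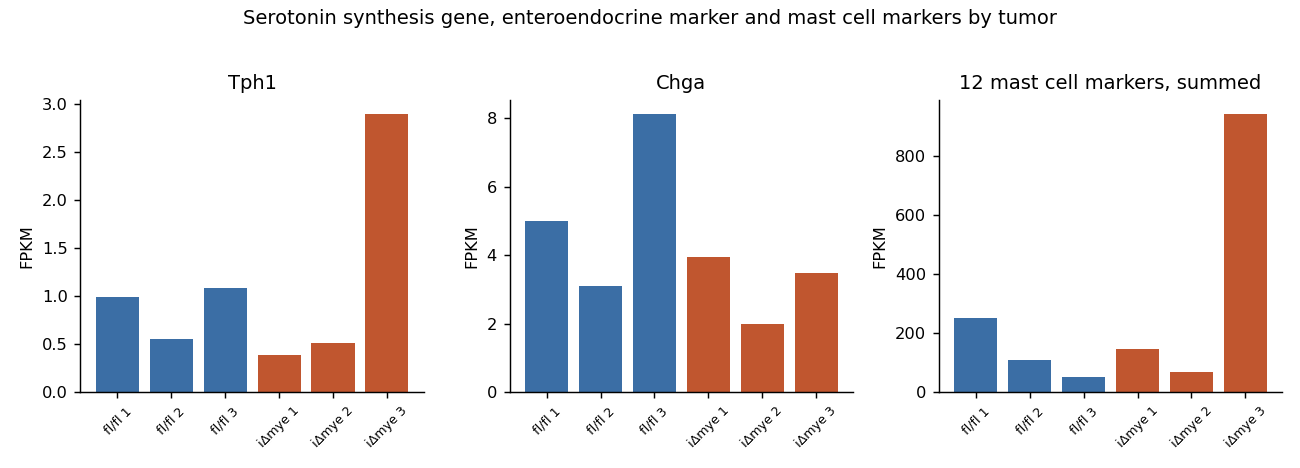
FPKM (y axes, from 0) of Tph1, of Chga and of the sum of 12 mast cell markers in each tumor (x axis; fl/fl is Tmem173fl/fl, iΔmye is Tmem173iΔmye). Tph1 (2.90) and the mast cell markers (943) are highest in Tmem173iΔmye replicate 3, where Chga is 3.49, below Tmem173fl/fl replicates 1 and 3.

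The genes around serotonin had 1 of 8 tested members with an unadjusted p of at most 0.05, against 6.14% of all genes, and none past the study's limits. This was Ddc, the decarboxylase of the next step, read 496, 755 and 604 times in Tmem173fl/fl and 980, 761 and 1094 times in Tmem173iΔmye tumors, with a fitted log2 ratio of 0.59 ± 0.21 (SE, with an edgeR adjusted p = 0.742). Slc18a1, the vesicular monoamine transporter of endocrine cells, had 0.10 (SE 0.37), and Maoa, which degrades serotonin, had -0.19 (SE 0.16). The median of the 8 was 0.07. In these tumors Slc18a1 had a mean of 6.39 and Ddc of 11.1 FPKM, against 1.07 for Tph1.

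Among 19 genes of the granule and of prohormone processing, 8 were tested, 7 of which were below 0, with a median of -0.62. One, Cplx2, passed the study's limits, where 0.864% of all genes passed in this direction. Cplx2, a complexin that acts in regulated exocytosis, was read 964, 1990 and 1252 times in Tmem173fl/fl and 588, 461 and 902 times in Tmem173iΔmye tumors, without overlap. Its fitted log2 ratio was -1.13 ± 0.34 (SE, with an edgeR adjusted p = 0.742). It was -0.74 without Tmem173fl/fl replicate 2 and -0.93 without Tmem173iΔmye replicate 2, and -0.89 with Y-linked reads as a covariate, short of the fold limit. Cplx2 was highest in Tmem173fl/fl replicate 2, the tumor that was among the lowest for most hormones. None of the other tested granule genes passed the limits, and of them only Ptprn was above 0. Ptprn2 had -0.87 ± 0.30 (SE, with an edgeR adjusted p = 0.742). Its groups did not overlap, as for 6.47% of all genes in this direction. Pam, which amidates peptide hormones, had -0.40 (SE 0.32), Cadps, a priming factor of granule exocytosis, had -0.07 (SE 0.69), and Ptprn, a granule membrane protein, had 0.60 (SE 0.30). Scg2, secretogranin II, had -0.89 (SE 0.60), and Pcsk1n, an inhibitor of prohormone convertase, had -0.76 (SE 0.66). Cpe, the carboxypeptidase that trims prohormones, had -0.49 (SE 0.33). Pcsk1, the convertase itself, had 26, 34 and 41 counts and 38, 20 and 16 counts and was under the limit for testing. So were Scg3, Scg5 and Vgf, granins with 0.10 (SE 0.74), 0.20 (SE 0.61) and 0.23 (SE 0.88), and Pcsk2 with 0.54 (SE 1.25). The rest under this limit were below 0, with SE of 0.45 to 1.79. They were Pcsk1 (-0.44), Stxbp5l (-0.78), Scgn (-0.88), Snap25 (-0.61), Rab3b (-0.46), Rab3c (-0.39) and Resp18 (-0.34).

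Of 20 transcription factors of the lineage, 15 were below the limit of 0.5 FPKM and 5 were tested. Isl1, a LIM-homeodomain factor of endocrine and neural cells, passed the study's limits, as 0.864% of all genes did in this direction. It was read 223, 569 and 1388 times in Tmem173fl/fl and 132, 67 and 216 times in Tmem173iΔmye tumors, and every Tmem173iΔmye tumor lay below every Tmem173fl/fl tumor, as for 6.47% of all genes. The fitted log2 ratio was -2.37 ± 0.65 (SE, with an edgeR adjusted p = 0.742), and without Tmem173fl/fl replicate 3 it was -1.57. Its mean was 6.79 FPKM, against 0.341 for Insm1 and 0.220 for Nkx2-2, factors of endocrine differentiation. Neurog3, which starts the lineage in progenitors, had 6, 3 and 1 counts and 7, 0 and 0 counts, too few for a comparison. Insm1 had 23, 21 and 20 counts and 19, 7 and 10 counts (log2 ratio -0.83 ± 0.52 SE, edgeR adjusted p = 0.767). In CPM its groups were barely apart, with 1.20042 in Tmem173fl/fl replicate 3 against 1.19958 in Tmem173iΔmye replicate 1. Of all genes tested, 6.47% were lower without overlap. In FPKM the Insm1 groups overlapped, with 0.3848 and 0.3859 in these 2 tumors. The widely expressed factors Foxa1 (56.4 FPKM) and Sox4 (40.3 FPKM) had log2 fold changes of -0.24 (SE 0.15) and -0.64 (SE 0.34).

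**Figure D5:**
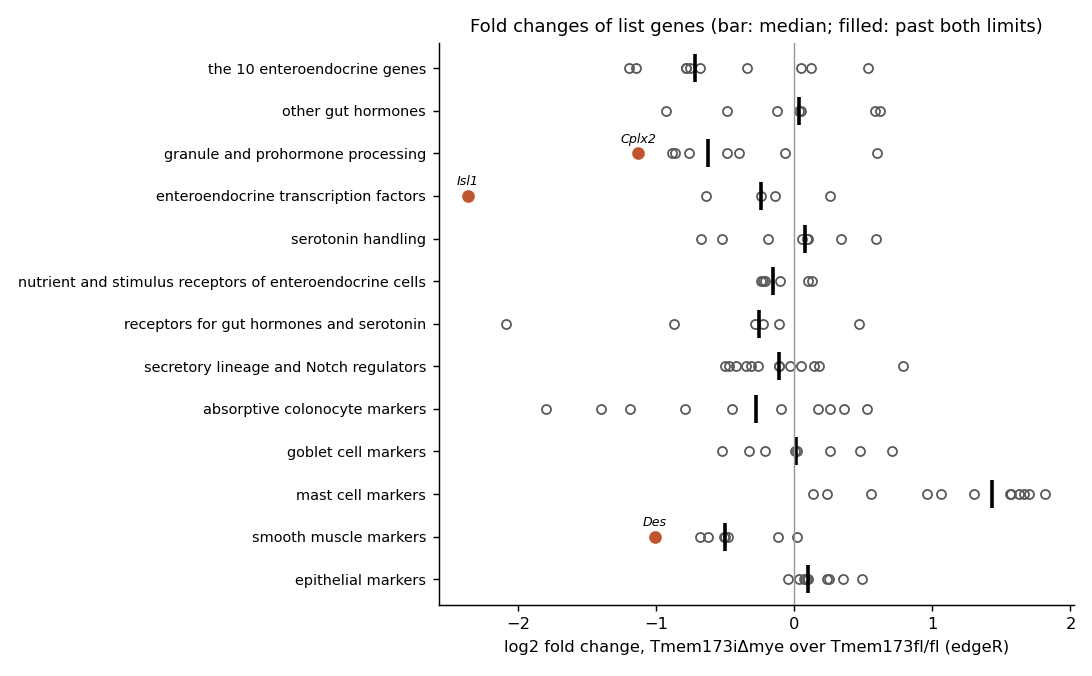
Fitted log2 fold changes (x axis) for Tmem173iΔmye over Tmem173fl/fl of the genes in each list (y axis), with the median of the list as a black bar and genes past the study's limits filled and named. All 10 enteroendocrine genes are drawn, and of the other lists those with a mean FPKM of at least 0.5. The enteroendocrine genes have a median of -0.72 and the mast cell markers of 1.43, and of the genes drawn, Isl1, Cplx2 and Des are past the limits.

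Other gut hormones had a median of 0.03 over 7 tested genes of 12, and none had an unadjusted p of at most 0.05. Tac1, encoding substance P, a neuropeptide that enterochromaffin cells and neurons share, was read 342, 92 and 101 times in Tmem173fl/fl and 244, 194 and 124 times in Tmem173iΔmye tumors. Nts, encoding neurotensin, had 11, 7 and 33 and 24, 2 and 20 counts, and the groups overlapped. Gip, the hormone of duodenal K cells, had 1 count in a single tumor, and Gast, gastrin, had 0 in all 6. Receptors by which these cells sense their surroundings had a median of -0.16 over 6 tested genes of 15. Ffar4, a receptor for long-chain fatty acids, was at 15.8 FPKM with a log2 fold change of 0.10 (SE 0.45), and Ffar2, a receptor for short-chain fatty acids, at 1.87 FPKM with -0.10 (SE 0.31). Receptors that receive the hormones had a median of -0.26 over 6 tested genes of 25, and none of these 6 had an unadjusted p of at most 0.05. Sstr3, a somatostatin receptor, and Htr7, a serotonin receptor, were among the 19 under the limit for testing. In the fit of all genes with any count they had -1.32 (SE 0.50) and 1.61 (SE 0.70), with an edgeR adjusted p = 0.767 for both. Both passed the study's limits there, on at most 94 and 33 counts per tumor, as did 872 of all 30939 genes. Glp2r, the receptor of a Gcg product, was at 0.803 FPKM, and Rxfp4, the receptor of Insl5, was read 0, 0 and 0 times in Tmem173fl/fl and 0, 1 and 1 times in Tmem173iΔmye tumors.

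Regulators of the choice between secretory and absorptive fate had a median of -0.11 over 13 tested genes of 14. Atoh1, which specifies secretory progenitors, was read 525, 128 and 364 times in Tmem173fl/fl and 319, 174 and 242 times in Tmem173iΔmye tumors, a log2 fold change of -0.47 (SE 0.46). Tmem173fl/fl replicate 2 was the lowest, as for 5 of the 10 enteroendocrine genes (Gcg, Cck, Sst, Neurod1 and Sct). Hey1, a Notch target, had 76, 92 and 79 counts and 115, 151 and 165 counts, without overlap, as for 6.03% of all genes in this direction. Its log2 ratio of 0.79 ± 0.25 (SE, edgeR adjusted p = 0.742) did not reach the fold limit. Of the 13 tested genes, 9 were below 0, among them Notch1 (-0.35), Notch2 (-0.50), Dll1 (-0.26), Dll4 (-0.31), Jag1 (-0.11) and the Notch target Hes1 (-0.11). In Tmem173fl/fl replicate 2, 8 of 10 absorptive colonocyte markers and 5 of 8 goblet cell markers were at their lowest, and their summed FPKM there was 348 and 647, against 597 to 935 and 1173 to 3252 in the other tumors. Tuft cell markers did not share this, with a summed FPKM of 51.4 there against 29.9 to 50.8 in the others. Of the 9, 0 were at their lowest there and 1 at its highest. In Tmem173iΔmye replicate 2, which was as often among the lowest for the enteroendocrine genes, 1 of 10 colonocyte and 0 of 8 goblet cell markers were at their lowest, with sums of 732 and 1326. Slc26a3, the chloride exchanger of mature colonocytes, was read 993, 40 and 1999 times in Tmem173fl/fl and 334, 354 and 433 times in Tmem173iΔmye tumors. The summed FPKM of the 10 epithelial markers was 5961 in Tmem173fl/fl replicate 2, against 6202 to 7314 in the others. The part of these markers in the low enteroendocrine values was not tested.

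Some enteroendocrine genes are also expressed by enteric neurons, so their markers were read as well. Of 16 neuron markers, 12 were under 0.5 FPKM, and of the defining ones Elavl4 had 3 to 10 and Chat 0 to 7 counts per tumor. Their summed FPKM was 10.6 to 17.7 in the Tmem173fl/fl and 13.1 to 15.9 in the Tmem173iΔmye tumors, of which Ret alone made up 4.89 to 11.4. Phox2a, a neuron marker under 0.5 FPKM, had 1.48 (SE 0.68) in the fit of all genes with any count. It passed the study's limits there on at most 30 counts per tumor, as did 872 of 30939 genes. Smooth muscle markers (8 of 8 tested, summed FPKM 122 to 171 in the Tmem173fl/fl and 99.6 to 159 in the Tmem173iΔmye tumors) had a median of -0.51. Des (desmin) was past the limits at -1.01 ± 0.39 (SE, with an edgeR adjusted p = 0.742). This call was lost without Tmem173fl/fl replicate 1 (-0.96) or 3 (-0.94) or Tmem173iΔmye replicate 1 (-0.84) or 2 (-0.71). It was also lost with Y-linked reads as a covariate (-0.96). Medians were -0.25 over 2 tested glia markers, -0.07 over 3 tuft cell, 0.01 over 8 goblet cell, -0.28 over 10 colonocyte, 0.10 over 10 epithelial and 0.24 over 4 neuron markers, and none of these tested genes passed the limits. The part of these cells in the enteroendocrine values was not tested. Genes of position along the colon had a median of -0.56 over 9 tested genes. Hoxb13, of the distal colon, ranged from 2408 to 3749 counts over the 6 tumors, whereas Hoxd13 was read 212, 3029 and 2646 times in Tmem173fl/fl and 362, 54 and 761 times in Tmem173iΔmye tumors. Hoxd13 was thus high in Tmem173fl/fl replicates 2 and 3, the tumors with the lowest and the highest enteroendocrine levels of that group.

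The mean of the centred log2(CPM + 1) of the 10 genes was 0.30, -0.43 and 0.63 in the Tmem173fl/fl and -0.18, -0.49 and 0.17 in the Tmem173iΔmye tumors. Among 12160 other genes with a mean CPM of at least 5, those whose log2(CPM + 1) was most like this profile over the 6 tumors were Fbxl15, Unk, Arhgap33, Brms1l and Kctd9, with Pearson coefficients of 0.989, 0.988, 0.984, 0.979 and 0.978 and Spearman coefficients of 0.886, 1, 0.943, 0.943 and 1. They were picked for this likeness, so no p is given. A coefficient of at least 0.9 was reached by 74 genes. Of the listed genes, 1 was among them, Hes1, a Notch target that restrains secretory fate, with 0.954. Fbxl15 itself ranged from 5.40 to 9.0 CPM.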

How the data were processed

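Poly(A) RNA from 3 Tmem173fl/fl and 3 Tmem173iΔmye tumors (labelled WT and CRE) was sequenced. The deposited table holds raw counts and FPKM values of each gene on GRCm38, and the submitters' processing notes name fastp, HISAT2 2.0.5, featureCounts 1.5.0-p3 and DESeq2 1.20.0. Strand use in counting is not given in the sources used here. Dividing the deposited counts by gene length, median-of-ratios size factor and geometric mean of the totals returned the FPKM (largest relative difference 2.3e-07). The table also holds the authors' own comparison (group means, fold changes and p-values), which was not used.

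Tests were run in edgeR 4.0.16 under R 4.3.3 (quasi-likelihood test on the counts, TMM, the group as the only term, Benjamini-Hochberg adjustment) for 16426 genes whose FPKM averaged 0.5 or more. The SE was taken as the size of the log2 ratio over the root of F. Fold changes are Tmem173iΔmye over Tmem173fl/fl. By exact two-sided permutation tests of CPM, where 3 against 3 cannot go below p = 0.1, the 10 genes gave p = 0.3 to p = 1.0. The members and lists were chosen with earlier results of these data known. Named were the 10 genes, up to 6 genes of each list (first those past the study's limits, then by FPKM) and the 5 genes most like their profile. Gip, Gast, Scg2, Pcsk1, Insm1, Nkx2-2, Neurog3, Rxfp4, Sstr3, Htr7, Scg3, Scg5, Vgf, Atoh1, Hey1, Elavl4, Chat and Slc26a3 fall outside that rule and were chosen after their values were seen. The same holds for Ptprn2, Pcsk2, Scgn, Resp18, Rab3b, Rab3c, Snap25, Stxbp5l, Phox2a, Notch1, Notch2, Dll1 and Jag1. All 219 genes of 18 lists were found. Fits were tested on simulated counts. Alternatives were other filters, median-of-ratios scaling, DESeq2 1.42.0, limma 3.58.1 on log2(FPKM + 1) and log2(FPKM + 0.1), the replicate number as a block, Y-linked reads as a covariate and leaving out each tumor. Those for Isl1, Cplx2 and Des were added after the values were seen. Totals of 15329810 to 16533732 counts limit genes with few counts. A floor of 3 counts covers counting error alone.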

Additional observations from a re-analysis of the deposited data

How the results depend on the processing

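Of 140 values (10 genes under 14 alternatives), 134 kept their direction. The exceptions were Cck without Tmem173fl/fl replicate 2 (-0.44) or Tmem173iΔmye replicate 1 (-0.49), Insl5 without Tmem173fl/fl replicate 2 (-0.22) or Tmem173iΔmye replicate 2 (-0.093) or 3 (-0.16), and Tph1 without Tmem173iΔmye replicate 3 (-0.97). Without single tumors, the log2 ratio ranged from -0.49 to 0.67 for Cck, from -0.22 to 0.33 for Insl5 and from -0.97 to 0.96 for Tph1. The number of the 10 genes past the study's limits was 0, and it was 1 (Pyy) without a filter or with DESeq2 and from 0 to 4 without single tumors. Between 7 and 9 genes were below 0 without single tumors, and 0 to 6 did not overlap. Over all genes, 349 passed the study's limits. This number was 872 without a filter, 136 with limma on log2(FPKM + 1), 211 with Y-linked reads as a covariate and from 218 to 636 without single tumors. An adjusted p under 0.05 was reached by 0 genes in edgeR (1008 at an unadjusted p of at most 0.05), by 6 without a filter, by 28 with DESeq2 and by 0 to 1 without single tumors. The cause of these moves was not tested.

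Across genes, tumors sharing a number deviated from their groups with correlations of 0.315, 0.008 and 0.154. Those with different numbers gave -0.374 to 0.223. These ranges overlap and do not decide whether the numbers pair the tumors, and the main fit was run without a pairing. In the fit with a replicate block, 0 of the 10 genes passed the study's limits, 7 were below 0 and 3 (Chga, Chgb and Pyy) had an unadjusted p of at most 0.05. Over all 16426 genes tested, the block gave 1504 with an unadjusted p of at most 0.05, 377 past the limits and 0 with an adjusted p under 0.05. Cck, Sst, Neurod1 and Sct rest on at most 52 counts per tumor.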
